A study of Rattus norvegicus with 3 samples.

Results

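AP-1 is a family of transcription factors that bind DNA as dimers of basic leucine zipper proteins. The genes examined were chosen by name from the deposited FPKM table, and 7 of the 9 listed had an entry: Jun, Junb, Jund, Fos, Fosl1, Atf3 and Batf, out of 16629 genes and regions in all. Fosb and Fosl2 were not analysed here. The 7 had 1 entry each, so no sums over entries were needed.

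The study measured poly(A) RNA of adult Sprague-Dawley rats housed with lights on for 14 h and off for 10 h a day. The glands came from night, at zeitgeber time 19 (hours after lights on, labelled midnight), and from day, at zeitgeber time 7 (labelled mid-day). The third library, also from zeitgeber time 7, mixed equal amounts of RNA from 15 other tissues: adrenal gland, skeletal muscle, small intestine, kidney, heart, lung and liver, besides pituitary, retina, spinal cord and parts of the brain (cortex, hypothalamus, midbrain, hindbrain, cerebellum). No group carried a genetic change or a drug treatment in the labels, and the number of animals or glands behind a library is not given in any source used. The design asks how the gland's transcripts differ by night and by day, and from other tissues.

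Each group had 1 library. The differences below therefore have no replicate check and no p-value, and are described by their size. Levels are in the authors' unit, FPKM, which counts fragments per kilobase of a transcript and scales them to the mapped total of the library, and so allows levels of different genes to be compared. Differences are log2 ratios of FPKM + 1. Genes under FPKM 1 in both libraries of a pair were left out of that comparison. A gene counted as different from 2-fold between night and day and from 4-fold against the mixed tissues. The intervals given are 95% Poisson bounds on the estimated number of fragments and cover counting error only, not differences between animals.

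Jun proteins form dimers with each other or with partners of the Fos, Atf and Batf families, while Fos proteins need a Jun partner. The dimers bind the sequence TGANTCA, called the TRE, and some also bind TGACGTCA, the cAMP response element or CRE. Several family members are immediate early genes, which are switched on within minutes of a signal without new protein synthesis. In the rat pineal gland, noradrenaline released at night raises cAMP and starts melatonin synthesis, and Fra-2, the protein made from Fosl2, is known as a night-time AP-1 protein of that gland.

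Promoter windows are shown for Junb, the AP-1 gene with the largest night over day ratio, and Jund, the most abundant one. They run from 250 bases before the gene start to 50 after it, from RefSeq on the GRCr8 build, 5′ to 3′ on the strand of the gene. The Junb window is chr19:40080876-40081175 on the plus strand and the Jund window is chr16:18769722-18770021 on the minus strand. Capitals mark the CRE and its core TGACG on either strand.
Junb: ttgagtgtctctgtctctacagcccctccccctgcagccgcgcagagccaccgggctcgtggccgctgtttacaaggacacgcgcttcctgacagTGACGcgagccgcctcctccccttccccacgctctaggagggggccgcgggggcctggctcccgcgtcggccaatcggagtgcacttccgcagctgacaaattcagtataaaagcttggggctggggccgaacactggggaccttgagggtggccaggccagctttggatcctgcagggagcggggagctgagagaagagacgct
Jund: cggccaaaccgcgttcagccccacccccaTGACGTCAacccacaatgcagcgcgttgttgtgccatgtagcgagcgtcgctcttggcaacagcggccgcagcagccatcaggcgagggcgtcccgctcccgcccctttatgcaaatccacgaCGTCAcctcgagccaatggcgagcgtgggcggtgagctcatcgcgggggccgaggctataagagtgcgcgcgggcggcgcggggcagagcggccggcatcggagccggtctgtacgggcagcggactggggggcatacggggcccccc

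The Junb window held 1 CRE core, which starts 155 bases before the gene start, and 0 full CRE. The Jund window held 1 full CRE, 221 bases before the start, whose letters also contain the core on each strand, and a separate CRE core 98 bases before the start. Of all 33469 promoter windows in the table, 21.2% held a CRE core and 1.83% a full CRE, with both strands searched. Among the 7942 genes compared between night and day that had a window, the shares were higher, at 33.3% for the core and 3.42% for the full CRE. Windows were in the table for 4 of the 7 genes. That of Fosl1 had 2 CRE cores and that of Batf had 1, with 0 full CRE in either. Neither the TRE (7.33% of all windows) nor the CArG box, the core of the serum response element (1.64%), was found in the 4 windows. Such matches describe the letters and are not evidence of binding.

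The 3 Jun genes together outweighed the other measured AP-1 genes in every library, and the order of Jun and Junb changed between night and day. Jund, which encodes the Jun protein that many tissues express without stimulation, was the highest AP-1 gene in every library. Its level was 42.7 FPKM in the pineal night library (38.7 to 47.0), 34.7 in the pineal day library (31.9 to 37.8) and 66.1 in the mixed tissues (62.4 to 70.0). The night interval lay just above the day interval, and both lay below that of the mixed tissues. The intervals leave out the uncertainty of the depth estimates, so the small gap between night and day may not be resolved. The night over day log2 ratio was 0.29, within 2-fold. Jund lies at chr16:19239694-19241529 in the rn4 build and has no introns, so its span served as its length.

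Junb encodes a Jun protein that activates transcription weakly on its own and can oppose Jun. It stood at 25.8 FPKM in the pineal night library (22.7 to 29.3), 5.56 in the pineal day library (4.46 to 6.88) and 20.6 in the mixed tissues (18.6 to 22.9). The day value was the low one, well apart from the other two libraries, whose intervals overlapped at their edges. The ratio of plain FPKM, night over day, was 4.64, and the log2 ratio of FPKM + 1 was 2.03. That placed Junb 118th from the top of 9826 genes compared. These values rest on an estimated 244 fragments by night and 86.8 by day. Junb, likewise without introns, lies at chr19:24831536-24833320 (rn4).

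Jun, the founding member and the strongest activator among the Jun proteins, went the other way. It was at 7.99 FPKM in the pineal night library (6.69 to 9.50), 13.6 in the pineal day library (12.3 to 15.1) and 32.7 in the mixed tissues (30.7 to 34.9). The 3 intervals did not overlap, with the night library lowest. The night over day log2 ratio was -0.70, within 2-fold, and ranked 691st from the bottom of the 9826 genes. The estimated fragments numbered 131 by night and 368 by day. Jun lies at chr5:115358167-115361259 (rn4) and is also a gene of a single exon.

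**Figure D1:**
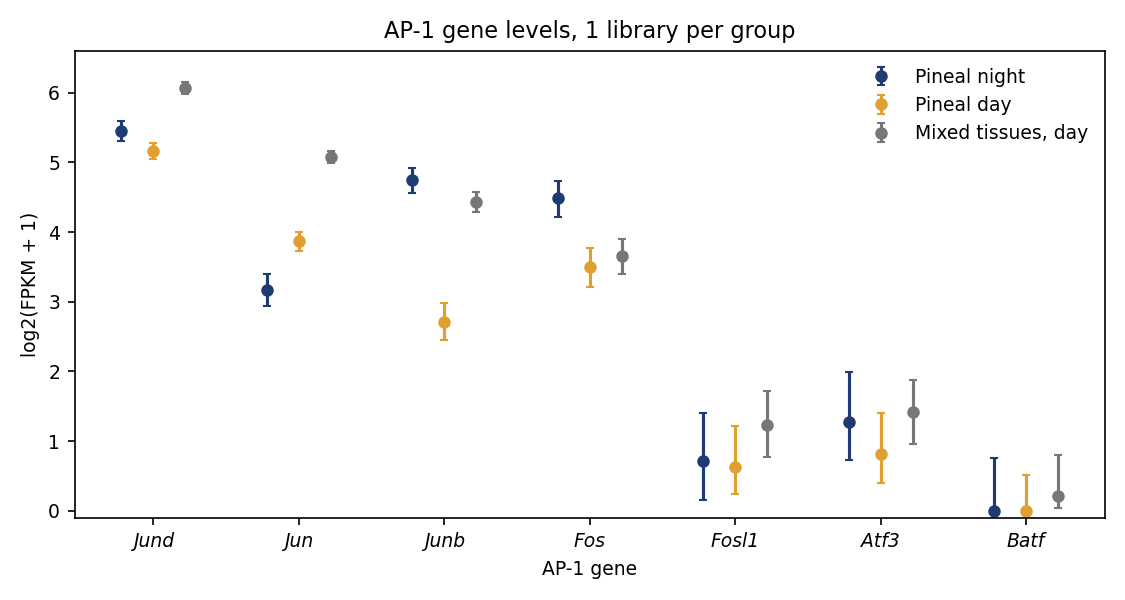
Level of each measured AP-1 gene, as log2(FPKM + 1) on the vertical axis, in the pineal night, pineal day and mixed-tissue libraries (1 library each). Bars are 95% Poisson bounds for counting error, taken over the span of Jun, Junb and Jund and over 1 kb of transcript for the other genes. Junb and Fos are higher by night than by day, Jun is lower, and Jund is the highest gene in each library.

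Added up, Jun family transcripts came to 76.5 FPKM by night, 53.9 by day and 119 in the mixed tissues. Jund held 55.8% of that sum in the night library, 64.5% in the day library and 55.3% in the mixed tissues. Junb held 33.7% by night, 10.3% by day and 17.3% in the mixed tissues, while Jun held 10.4% by night, 25.2% by day and 27.4% in the mixed tissues. Junb and Jun thus exchanged places: Junb was 3.23 times as abundant as Jun by night, but 0.409 times by day and 0.631 times in the mixed tissues. The ratio of 2 genes within a library does not depend on how that library was scaled.

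**Figure D2:**
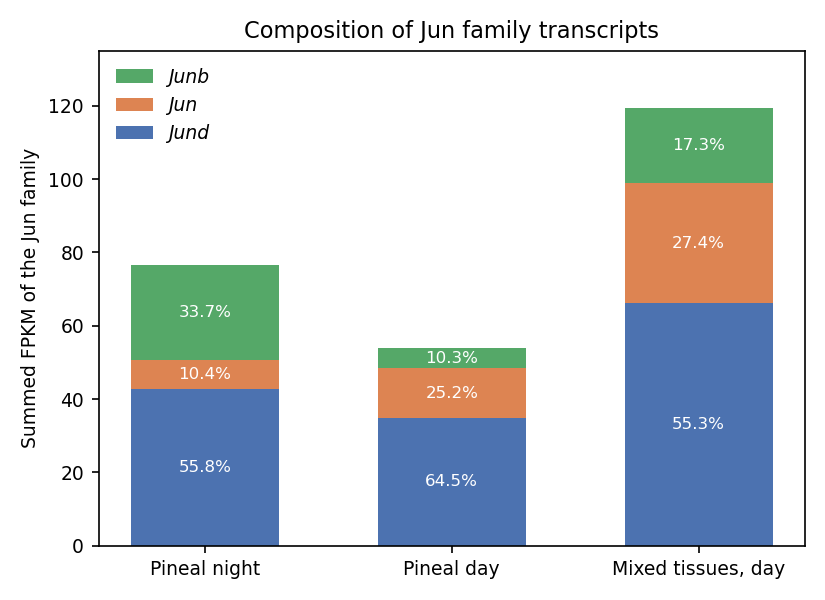
Summed FPKM of Jund, Jun and Junb in the pineal night, pineal day and mixed-tissue libraries (1 library each), with each gene's percentage of the sum written in its segment. Junb makes up 33.7% of the bar by night and 10.3% by day, while Jun makes up 10.4% by night and 25.2% by day.

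Fos, the classic immediate early gene and partner of the Jun proteins, was at 21.3 FPKM in the pineal night library, 10.3 in the pineal day library and 11.6 in the mixed tissues. Over 1 kb of transcript the bounds were 17.6 to 25.7 by night, 8.28 to 12.7 by day and 9.57 to 14.0 in the mixed tissues. The night library was the high one, and the day library and the mixed tissues overlapped. The log2 ratio of night over day was 0.99, just short of 2-fold, and ranked 421st from the top. The ratio of plain FPKM was 2.08, just past it. Fos lies at chr6:109559135-109562001 (rn4).

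Fosl1 encodes Fra-1, a Fos protein that lacks the strong activation domain of Fos. It was listed at 0.637 FPKM by night, 0.542 by day and 1.35 in the mixed tissues. Both pineal values were below the filter, so Fosl1 was compared only with the mixed tissues. They lie near the level of 3 fragments on 1 kb, which was 0.567 FPKM in the night library and 0.343 in the day library, and their bounds (0.117 to 1.66 by night, 0.186 to 1.33 by day) do not resolve a difference. Fosl1 accordingly made up 2.90% of the summed FPKM of Fos and Fosl1 by night, 5.01% by day and 10.4% in the mixed tissues, without the Fos family genes not analysed here.

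Atf3, a stress-induced factor that represses transcription as a homodimer and pairs with Jun proteins, was at 1.43 FPKM by night, 0.762 by day and 1.66 in the mixed tissues. The bounds over 1 kb (0.653 to 2.98 by night, 0.322 to 1.65 by day, 0.939 to 2.67 in the mixed tissues) overlapped throughout. Its night over day log2 ratio was 0.46. Batf, a partner of Jun proteins known from lymphocytes, was listed at 0 in both pineal libraries and at 0.157 FPKM in the mixed tissues, under the level of 3 fragments on 1 kb there (0.308). No fold is given for it. In this table a listed 0 need not mean absence: Cldn5, a gene of brain endothelium, is listed at 0 in all 3 libraries. The reason for such zeros was not tested.

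Of the 7 genes, 5 passed the filter for night against day. Of these 1 was at least 2-fold higher by night, Junb, and 0 were lower, while Fos, Jund, Atf3 and Jun lay within 2-fold. Over all 9826 genes compared, 4.18% had passed 2-fold on the night side and 2.11% on the day side. Junb also passed 4-fold, as did 1.26% of all genes. The median log2 ratio of the 5 genes was 0.46, that of all genes -0.11. The former is the ratio of Atf3, whose counting bounds overlapped. Atf3 passed the filter through the night library alone (1.43 FPKM by night against 0.762 by day), which fixed the side of its ratio. Among genes at FPKM 1 or more in both libraries the median was -0.10. Relative to that median the log2 ratios were 2.13 for Junb, 1.09 for Fos (then past 2-fold), 0.56 for Atf3, 0.39 for Jund and -0.60 for Jun.

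**Figure D3:**
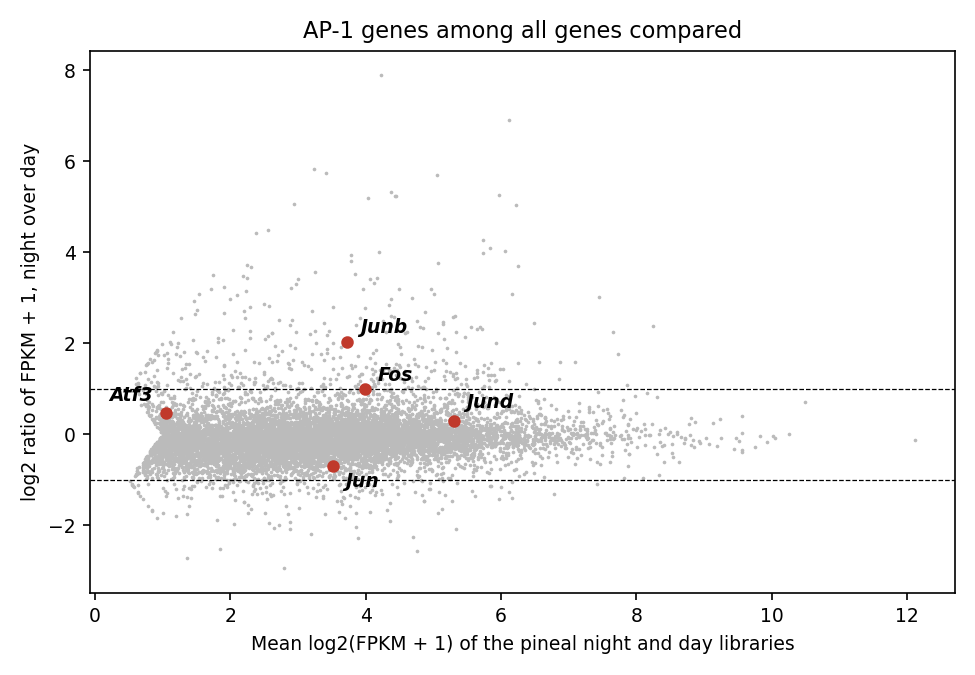
Log2 ratio of FPKM + 1, night over day, against the mean log2(FPKM + 1) of both pineal libraries. Grey points are the 9826 genes and regions compared, red points the 5 AP-1 genes that passed the filter, and dashed lines mark 2-fold. Junb lies at 2.03, Fos at 0.99 on the dashed line, and Jun at -0.70 on the lower side of the cloud.

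In the day gland against the mixed tissues of the same zeitgeber time, 6 AP-1 genes passed the filter. All 6 had a log2 ratio under 0, with a median of -0.76. Fosl1 and Atf3 were under FPKM 1 in the day gland and passed through the mixed library alone. The filter thus fixed the side of their ratios, and Jun, Junb, Jund and Fos are the informative ones. Over all 11934 genes compared, 61.8% had a ratio under 0 and the median was -0.27. None of the 6 reached 4-fold in either direction, against 2.29% of all genes higher and 13.2% lower in the gland. Junb was lowest relative to the mixed tissues, with a log2 ratio of -1.72. Jun followed at -1.21, Jund at -0.91, Fosl1 at -0.61, Atf3 at -0.60 and Fos at -0.17, and the counting bounds of Fosl1, Atf3 and Fos overlapped those in the mixed tissues. At 2-fold, Junb and Jun were lower, as were 28.9% of all genes.

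By night the gland came up to the mixed tissues in Junb (log2 ratio 0.31) and passed them in Fos (0.82), while Jun stood further below them (-1.91). Jund was at -0.62, Fosl1 at -0.52 and Atf3 at -0.14. Fosl1, at 0.637 FPKM by night, passed the filter through the mixed library alone, which fixed the side of its ratio. The counting bounds of Fosl1 and Atf3 overlapped those in the mixed tissues. Again 0 of 6 genes passed 4-fold, where 3.09% of all 11951 genes were higher and 14.4% lower. Jun was past 2-fold on the low side, as were 31.2% of all genes. At FPKM 1 or more in both libraries the median ratio was -0.14, and relative to it Jun was at -1.77, Jund at -0.48 and Fosl1 at -0.39, Junb at 0.44 and Fos at 0.96, and Atf3 changed side to 0.00. This comparison joins tissue and time of day, which cannot be told apart in it, and shares the night library with the first comparison and the mixed library with the second. The mixed library averages tissues that may differ widely, so a level in it is that of no single tissue.

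The labelled tissue was checked against its markers. All 16 pinealocyte markers reached FPKM 1 in both pineal libraries, and 13 exceeded the mixed tissues 4-fold or more in the day library. Tph1, the first enzyme of serotonin synthesis, reached 4245 FPKM by night, 4665 by day and 0.309 in the mixed tissues. Markers of other cells were present too, with lower sums in the night library: 6 fibroblast markers summed to 180 FPKM by night and 242 by day, 5 astrocyte markers to 134 by night and 178 by day, and 9 microglia and macrophage markers to 70.8 by night and 74.2 by day, where 4 of the 9 had a ratio above 0. None of these 20 was at 0, and their part in the AP-1 values was not tested. Most of the astrocyte sum came from Slc1a2 (58.4 FPKM by night, 72.6 by day) and Gja1 (61.9 by night, 81.4 by day). Smaller sums by night were also found for endothelial (17.5 by night against 20.9 by day), oligodendrocyte (16.1 by night against 30.1 by day), erythroid (358 by night against 387 by day), rod (326 by night against 460 by day) and neuronal markers (499 by night against 583 by day, nearly all of it Slc17a7, a glutamate transporter gene also known from pinealocytes). Of 10 lymphocyte and granulocyte markers, 7 were listed at 0 by night and 1 by day (sums of 2.76 FPKM by night and 2.34 by day). Most of the rod sum came from Rom1 (313 FPKM by night, 442 by day). Lower values by night were common in the table: of all 9826 genes compared, 6076 had a night over day ratio below 0, with a median log2 ratio of -0.11. Fewer cells of a type, less RNA per cell and the scaling of FPKM to each library's total cannot be told apart in whole tissue. The night library was estimated at 60.5% of the depth of the day library and the mixed library at 111% of it.

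Other basic leucine zipper genes gave the family its setting. Of 18 genes akin to AP-1, 11 could be compared between night and day. Mafg, a small Maf protein without an activation domain that pairs with larger partners, had 27.7 FPKM by night against 12.4 by day (log2 ratio 1.10) and was the 1 gene past 2-fold, with 0 lower. Next came Maf, a large Maf activator (8.95 by night against 4.25 by day, log2 0.92), Bach1, a repressor that pairs with small Maf proteins (7.13 by night against 3.57 by day, log2 0.83), and Nfe2l2, which encodes Nrf2 of the oxidative stress response (28.9 by night against 17.1 by day, log2 0.73). The median of the 11 was 0.39, the ratio of Batf3, which passed the filter through the night library alone. Over all genes compared, 4.18% were past 2-fold on the night side and 2.11% on the day side, with a median of -0.11. Jdp2, a repressor that pairs with Jun proteins, was at 0.797 by night, 0.874 by day and 5.07 in the mixed tissues. Nrl, the Maf-type factor of rods, was listed at 0 by night and was at 0.407 FPKM by day against 41.5 in the mixed tissues, which contain retina.

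Of 22 Creb, Atf, Cebp and related genes, 18 could be compared, of which 5 passed 2-fold on the night side and 0 on the day side (median 0.38). Among all genes compared, the shares were 4.18% on the night side and 2.11% on the day side (median -0.11). Crem, a cAMP-responsive factor that also makes repressors, led with 428 FPKM by night against 12.1 by day (log2 ratio 5.04). The others were Ddit3, a stress factor (90.0 by night against 30.7 by day, log2 1.52), Xbp1 of the unfolded protein response (78.5 by night against 30.3 by day, log2 1.35), Cebpb (6.17 by night against 2.01 by day, log2 1.25) and the clock output Dbp (89.8 by night against 39.2 by day, log2 1.17). In FPKM, Crem by night was thus several times the level of every AP-1 gene measured.

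Immediate early genes outside the family mostly had higher values by night. Their list, which shares Maff with the genes akin to AP-1, was chosen with earlier results of these data known. Of 30 listed, 22 could be compared, of which 18 had a ratio above 0, 12 passed 2-fold on the night side and 0 on the day side, and the median log2 ratio was 1.18. Nr4a3 and Klf4 were under FPKM 1 by day and passed the filter through the night library alone. Over all genes compared, 38.2% had a ratio above 0 and 4.18% passed 2-fold on the night side. Junb, at 2.03, ranked below 7 of the 12: Dusp1 (5.69), Sik1 (5.18), Nr4a1 (4.01), Nr4a3 (3.71), Gadd45b (2.85), Per1 (2.77) and Egr1 (2.23). It ranked above Csrnp1 (1.84), Btg2 (1.79), Nr4a2 (1.59), Ier2 (1.28) and Ier3 (1.08). Btg1 (53.9 by night against 53.7 by day, log2 0.01) and Ctgf (3.29 by night against 5.23 by day, log2 -0.54) were among the 10 within 2-fold.

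**Figure D4:**
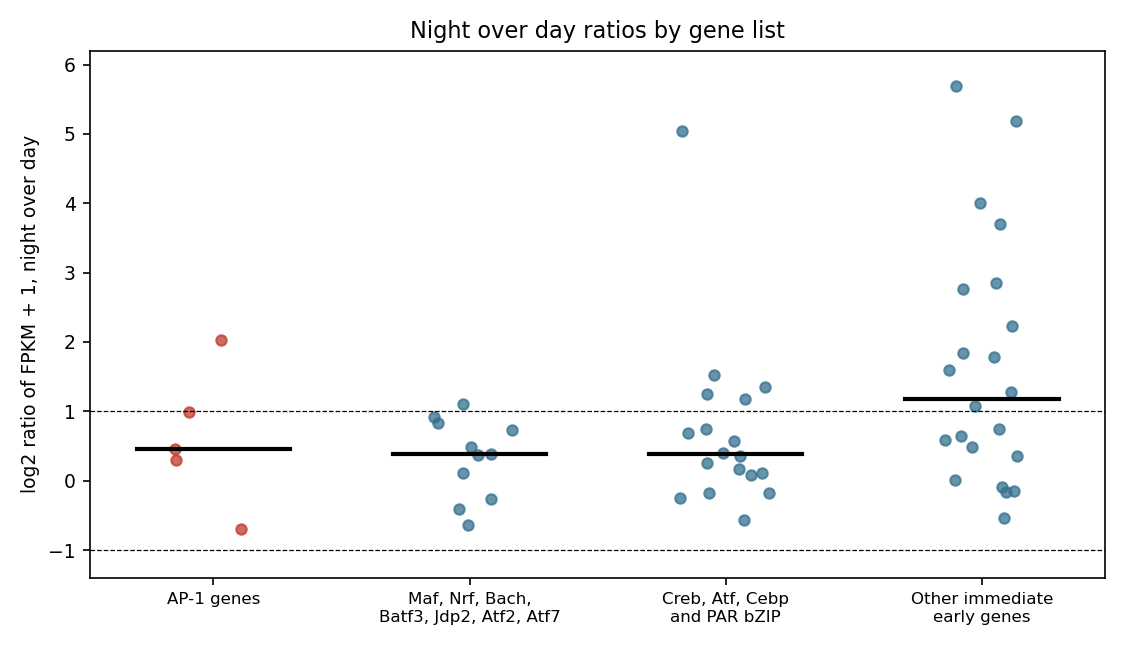
Log2 ratio of FPKM + 1, night over day, for each compared gene of 4 lists: AP-1 genes (5), other AP-1-type factors (11), Creb, Atf, Cebp and related factors (18) and other immediate early genes (22). Thick lines are list medians (0.46, 0.39, 0.38 and 1.18) and dashed lines mark 2-fold. The medians 0.46 and 0.39 are the ratios of Atf3 and Batf3, which passed the filter through the night library alone. The widest spread is in the immediate early genes. Maff is plotted both there and among the other AP-1-type factors.

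Genes that act upstream of AP-1 were mostly within 2-fold, as were most genes of the table (4.18% higher by night and 2.11% lower). Of 25 listed kinases of the MAP kinase cascades, which phosphorylate Jun and the factors that switch on Fos, 22 were found. Of these 22, 21 were within 2-fold between night and day (median -0.08). Rps6ka4 is counted among them through its gene ID, although the table labels that entry Ccdc88b. Mapk10, the JNK isoform of neurons, was the 1 past 2-fold, at 10.3 FPKM by night, 2.70 by day and 15.7 in the mixed tissues (log2 1.62, night over day). Its relative Mapk9 was at 19.7 by night and 16.8 by day. Of 14 listed genes for serum response factor, its partners and cofactors, 8 were found. They were Srf itself, its Ets-type partners (Elk1, Elk3 and Elk4), coactivators of Creb (Crtc1, Crtc2 and Crebbp) and the factor Mef2d. All 8 were within 2-fold (median -0.04), with Srf at 7.32 by night against 8.15 by day. The largest ratio was that of Mef2d (61.4 by night against 32.5 by day, log2 0.90). Of 13 listed genes for turnover and inhibition of AP-1 proteins, 12 were found, and these were within 2-fold as well (median -0.02, from -0.23 to 0.32).

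Genes reported as AP-1 targets in various tissues were mostly within 2-fold between night and day. Of 36 measured, 22 could be compared, of which 2 passed 2-fold on the night side and 0 on the day side, with a median of -0.15. Of all genes 4.18% passed 2-fold on the night side, with a median of -0.11. Dio2, the deiodinase that activates thyroid hormone, had 76.8 FPKM by night against 0.464 by day (log2 5.73), and the metallothionein gene Mt1a 3.21 by night against 0.245 by day (log2 1.76). Both passed the filter through the night library alone. Vim, which encodes vimentin (72.9 by night against 80.5 by day), Penk, the enkephalin precursor (88.6 by night against 97.0 by day), and Vegfa (32.5 by night against 36.3 by day) were within 2-fold. By day against the mixed tissues 10 of 28 targets were at least 4-fold lower in the gland and 0 higher, where 13.2% of all genes were lower and 2.29% higher. Of these 10, Plau, Pdyn, Vip, Nts and Cdk5r1 were under FPKM 1 in the gland. They passed the filter through the mixed library alone, which fixed the side of their ratios. The 10 included Spp1, osteopontin (1.33 FPKM in the gland against 45.4 in the mixed tissues, log2 -4.32), and Gap43, a protein of growing axons (7.28 in the gland against 65.7 in the mixed tissues, log2 -3.01).

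The 7 genes lie on 6 chromosomes, and Fos and Batf are the pair that share one. On chromosome 6 (rn4), Fos, Jdp2 and Batf fall within 258 kb, with gaps of 147 kb from Fos to Jdp2 and 52.7 kb from Jdp2 to Batf. Their levels differed widely, since Fos was at 21.3 FPKM by night while Jdp2 and Batf were under 1 in both pineal libraries. On chromosome 13, Atf3 lies 51.4 kb from Batf3, which was at 1.60 by night and 0.984 by day. The genes next to Junb did not share its ratio: Prdx2, a peroxiredoxin 2.88 kb away, had 161 FPKM by night against 158 by day, and Hook2, 12.1 kb away on the other side, was at 3.07 by night and 3.23 by day. No entry of the table other than unnamed regions and microRNAs, which were not searched, overlapped the span of any of the 7 genes.

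Genes with the most similar pattern were ranked by Euclidean distance of log2(FPKM + 1) over the 3 libraries. The nearest to Junb were Parvb (distance 0.29), Dgat2 (0.43), Amotl2 (0.45), Btg2 (0.56) and Fahd1 (0.59). Parvb, for example, was at 21.1 FPKM by night, 5.80 by day and 19.8 in the mixed tissues. Those nearest to Fos were Birc2 (0.16), Cnih4 (0.19), Cldn12 (0.21), Armcx1 (0.23) and Lats2 (0.25). With 3 libraries such a likeness is weak, as it is a match of 3 levels.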

How the data were processed

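Values are FPKM as deposited by the authors, a unit given per the file headers. Per the labels' protocols, poly(A) RNA was fragmented, reverse transcribed from random primers, amplified by PCR and sequenced as paired ends, 1 lane a library. TopHat 1.3.1, Cufflinks 1.2.0 and the rn4 build are named, per the submitters' processing notes. Options, strand use and the handling of shared reads and PCR duplicates are not given in any source used. FPKM is scaled to each library's total, so a few abundant transcripts lower the rest.

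The series table and the sample files were identical in 51267 of 51267 values. Its 17089 entries were summed by symbol to 16629 genes and regions. Starts in the table count from 0: in 1189 of 1192 olfactory receptor models the end minus the start was a multiple of 3. They are printed here counted from 1.

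Ratios used a pseudocount of 1 FPKM and a filter at FPKM 1. Depth was estimated from single-exon receptor models, whose smallest values above 0 repeat at 1 fragment: 22 models by day, 4 by night and 23 in the mixed tissues, giving 5.29 fragments per kb at 1 FPKM by night, 8.74 by day and 9.73 in the mixed tissues. The night estimate rests on few models. Poisson bounds used the span of Jun, Junb and Jund and 1 kb for the others.

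The members, 18 gene lists and alternatives were chosen with earlier results of these data known. Of 243 list symbols 219 were found, 5 of them by gene ID. All AP-1 genes are named, with the 5 nearest patterns to Junb and Fos. From other lists, genes past the fold at FPKM 5, or otherwise up to 4 with large ratios, could be named, and not all of them are. Genes named outside that rule (Btg1, Ctgf, Mt1a, Mapk9, Srf, Jdp2, Nrl, Batf3, Cldn5, Vim, Penk, Vegfa and the neighbours) were chosen after their values were seen. Alternatives were another pseudocount, filter, scaling, entry or fold. Calculations used Python 3.11.15, pandas 2.3.3 and scipy 1.17.1. The ratio calls were tested on simulated data for well-expressed genes alone, with 4-fold changes or none and equal depth. That test does not cover low levels, changes near 2-fold or the unequal depth of these libraries.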

Additional observations from a re-analysis of the deposited data

How the results depend on the processing

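No paired analysis was possible because each group had 1 library, and no library could be left out. Between night and day, 1 AP-1 gene was higher as reported, and 2 (Junb and Fos) with a pseudocount of 0.1, with the libraries centred or, an alternative chosen after seeing the data, with no pseudocount; 0 were lower throughout. Against the mixed tissues, 2 AP-1 genes were lower by day at 2-fold, and 1 (Jun) by night at 2-fold or with a pseudocount of 0.1. Of 56 ratios of single AP-1 genes recomputed with another pseudocount, no pseudocount or centred libraries, 53 stayed within their counting bounds; filters and the choice of entry cannot alter a single gene's ratio here. The 3 others, with a pseudocount of 5, were Junb at 1.54 between night and day and -1.28 by day against the mixed tissues, and Jun at -1.54 by night against them.

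Counts over all genes depended more on low values. Between night and day, a pseudocount of 0.1 gave 533 higher and 518 lower (411 and 207 as reported). The excess on the night side was thus small at that setting. A pseudocount of 5 gave 231 higher and 64 lower, and 4-fold gave 124 and 11. For the day gland against the mixed tissues, these pseudocounts gave 424 higher and 2611 lower, and 156 and 522, and 2-fold gave 993 and 3445. For the night gland, 0.1 gave 2831 lower, 5 gave 207 higher and 553 lower, and 2-fold gave 1074 and 3724. Filters and the choice of entry moved no count by over 1.5 times. Depth limits Fosl1, Atf3 and Batf, whose estimated fragments over 1 kb were under 10 in both pineal libraries.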

Other observations

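The AP-1 site TGANTCA was counted in the promoter windows of all genes compared between night and day, on both strands, where the RefSeq table held a window. It was present for 18 of 281 genes at least 2-fold higher by night (6.41%), 8 of 148 genes at least 2-fold lower (5.41%) and 402 of all 7942 genes (5.06%). The CRE TGACGTCA was present for 19 of the 281 genes higher by night (6.76%), 3 of the 148 lower (2.03%) and 272 of all 7942 (3.42%). These shares are descriptions without a test, and windows of 300 bases leave out distant sites.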
